A study of Triticum aestivum with 2 samples.

Results

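The provascular marker genes examined here are the 9 wheat genes that the study lists for provascular cells, 8 for which it saw the pattern it looked for in root sections and a ninth, TraesCS5A03G0363500, listed for plotting. They are 9 of the 100979 nuclear gene IDs counted on either of the study's 2 Stereo-seq chips, and all 9 were found on both. Stereo-seq lays a thin tissue section on a chip of barcoded capture spots, so that each captured RNA molecule is counted as a molecular identifier (MID) with the position of its spot. Both chips carried 10 μm cross-sections of frozen roots of soil-grown wheat (Triticum aestivum, ecotype Chinese spring). The seeds of both were soaked in the cold, treated with warm water and germinated on MS medium before transfer to soil. One chip held sections of the distal root region and 1 held sections of the root cap region. No genotype or treatment differed between them. Each region is 1 chip and 1 library, so a difference between regions cannot be told apart from a difference between chips.

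The vascular cylinder of a root, the stele, holds the water-conducting xylem, the sugar-conducting phloem and the provascular (procambial) cells from which both arise, with the pericycle as its outermost layer and the endodermis around it. In a root tip the provascular cells are not yet differentiated and fill much of the space between the forming xylem and phloem. Few of the 9 genes carry a name in the sources used here. TraesCS3D03G0013700 encodes a WALLS ARE THIN1-like protein and is orthologous to Arabidopsis WAT1, a vacuolar membrane auxin transporter needed for secondary wall formation in fibres. TraesCS1B03G0050600 is annotated as a Bowman-Birk type trypsin inhibitor, a class of small proteins that block serine proteases. TraesCS2A03G0412800 shares an orthologous group with an Arabidopsis gene of the cupredoxin (blue copper protein) family. TraesCS6A03G0661700LC is a low-confidence gene model. TraesCS5A03G0363500, TraesCS5D03G0346300, TraesCS1B03G0051800, TraesCS1B03G0053600 and TraesCS3B03G0036500 are given by ID only.

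Each region was represented by 1 library. The distal root region chip held 77515877 MIDs over its whole capture area and the root cap region chip held 28281662. Within hand-drawn outlines lay 9.39% of them in 4 distal sections and 10.7% in 10 root cap region sections. A distal section held 1422718 to 2229561 nuclear MIDs and a root cap region section 91474 to 680913. Several root cap region sections were folded or torn (3, 6 and 8 most clearly), and sections 5 and 10 were small. As sections that share a chip and a library are not independent of each other, no test was made. Unless stated otherwise, the limits given are exact 95% Poisson or binomial limits, which cover counting error only. They take each MID as independent, but MIDs of a gene shared spots. The 443 distal MIDs of TraesCS5A03G0363500 lay at 330 spots, so the limits may be too narrow. In sections, fewer cells of a type and less RNA per cell cannot be told apart.

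The list was chosen by position. The study judged by eye, on sections of these chips, whether a gene was enriched at the section centre, so the central position of the members is a description and supports nothing. It looked at the centre because, in its account, the hollow metaxylem there draws in signal that diffused from provascular cells. Whether central MIDs lie over the cells that made the RNA was not tested. Across the 4 distal sections the 9 genes had 1327 MIDs, of which 1036 (78.1%) fell in the central zone, the part inside a relative radius of 0.37 (0 at the section centre, 1 at the outline). All nuclear genes together had 13% of their MIDs there. With the MIDs of each section spread like all nuclear MIDs, 175 would have been expected, which gives a log2 enrichment of 2.56 (limits 2.48 to 2.65). In the root cap region sections 742 of 1105 MIDs (67.1%) were central, with 174 expected and a log2 enrichment of 2.09 (limits 1.99 to 2.20). Most MIDs of the list thus lay there in both regions, with a narrower spread of the uncorrected counts in the distal sections. With the density just outside the outlines subtracted from the members, the 2 enrichments were close. They were then 2.80 in the distal (limits 2.71 to 2.89) and 2.77 in the root cap region sections (limits 2.66 to 2.88). These limits are not exact. They treat the subtracted value as a count and leave out the error of the density outside.

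**Figure D1:**
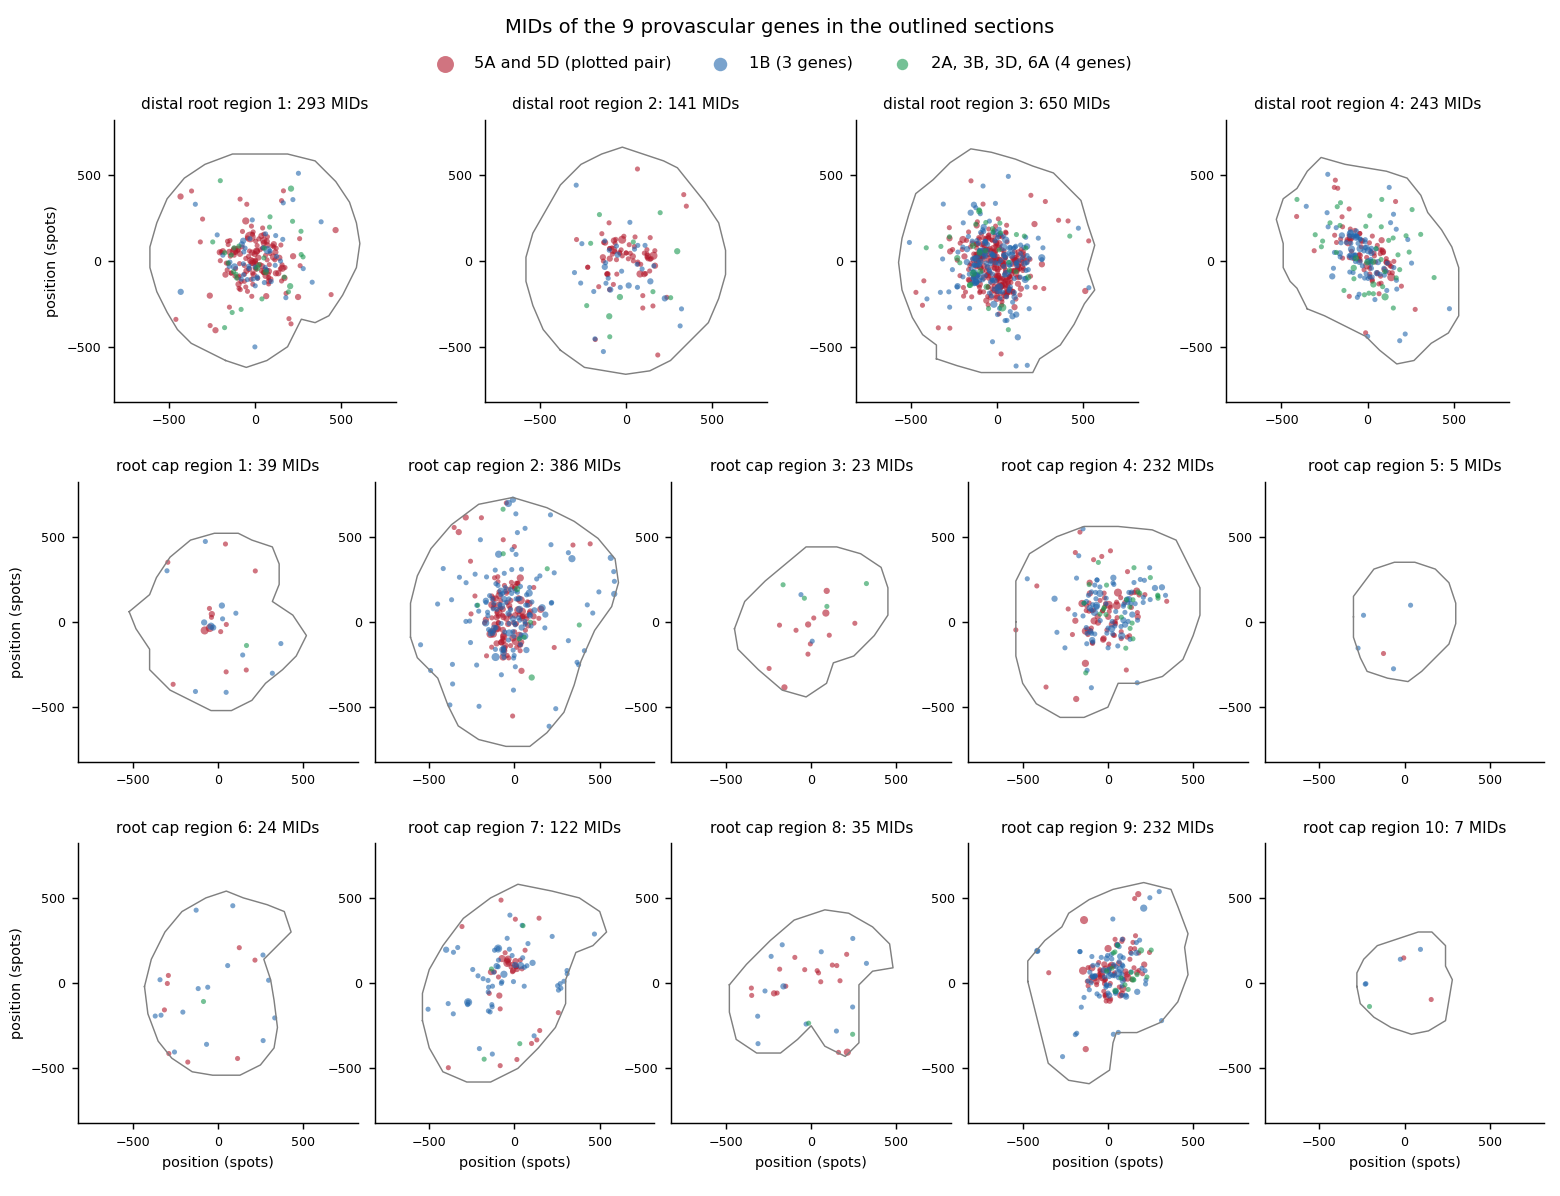
Position of every MID of the 9 provascular genes in the 4 distal root region sections (top row) and the 10 root cap region sections (lower rows), in capture spots from the middle of each section, with the hand-drawn outline in grey. Colours mark the 5A and 5D pair, the 3 genes of chromosome 1B and the other 4 genes, and point size rises with the MIDs at a spot. The points crowd at the centre of all 4 distal sections, and sections 5 and 10 of the root cap region held 5 and 7 MIDs.

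Density fell steeply with radius. In the distal sections the 9 genes had 2.70, 2.65 and 2.04 MIDs per 1000 spots in the innermost 3 of 10 equal steps of radius, then 0.622 and 0.225 in the next 2, and 0.0183 in the step at the outline. All nuclear genes were flat over the same sections, at 1.61 MIDs per spot in the central zone and 1.70 between radius 0.37 and 0.50. They had 1.71 in the cortex zone (0.50 to 0.85) and 1.71 in the outermost zone. The zones are set by radius and do not separate tissues. Between 0.37 and 0.50 lay 42.8% of the distal MIDs of the study's xylem genes and 44.3% of those of its phloem genes. Of the 341 distal MIDs of its endodermis genes, 142 lay there and 149 in the cortex zone. In the root cap region sections the 9 genes had 1.38, 1.27 and 0.832 MIDs per 1000 spots in the innermost 3 steps and 0.0565 in the step at the outline. Summed over the 9 genes, the MIDs lay nearer the centre than those of the lists for the mature vascular tissues, though not for every member. The median radius of the sum in the distal sections was 0.24 (quartiles 0.17 and 0.34), against 0.41 for the 4 xylem genes of the study, 0.39 for its 6 phloem genes and 0.50 for its 6 endodermis genes. For the root cap region the median was 0.26 for the 9 genes and 0.43 for the xylem genes, and the phloem list had only 4 MIDs. These other lists were chosen on the same sections too.

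Most of the signal came from few genes. TraesCS5A03G0363500, TraesCS5D03G0346300 and TraesCS1B03G0051800 gave 1075 of the 1327 distal MIDs (81.0%) and 839 of the 1105 root cap region MIDs (75.9%). Counts are not corrected for transcript length, so they do not rank the genes by abundance.

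TraesCS5A03G0363500 had 119, 53, 205 and 66 MIDs in distal sections 1 to 4, which is 62, 31, 91.9 and 46.4 CPM (MIDs per 1000000 nuclear MIDs of the section or region). Section 3 stood highest and section 2 lowest, 2.96-fold apart (limits 2.18 to 4.09). Of its 443 distal MIDs 370 were central, with 58 expected (log2 2.67, limits 2.52 to 2.82). On the root cap region chip it had 264 MIDs, 198 of them central (log2 2.26, limits 2.05 to 2.46). There it ran between no MID in section 5 and 151 CPM in section 9, with a median of 82.4 CPM.

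TraesCS5D03G0346300, the other gene listed for plotting, had 88, 37, 170 and 26 MIDs in distal sections 1 to 4, or 45.9, 21.7, 76.2 and 18.3 CPM. Here section 4 (limits 11.9 to 26.8) had the lowest value, not section 2 (limits 15.3 to 29.9), but these limits overlap. It was the most central member with 20 or more MIDs, with 278 of 321 distal MIDs (86.6%) in the central zone (log2 2.73, limits 2.56 to 2.90). Among its 261 MIDs on the root cap region chip 199 were central (log2 2.27, limits 2.06 to 2.47), and it ran between no MID in section 10 and 191 CPM in section 9.

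TraesCS5A03G0363500 made up 58% of the pair's 764 MIDs in the distal sections (limits 54.4 to 61.5). In the root cap region sections it made up 50.3% of 525 (limits 45.9 to 54.6). These limits overlap only at their ends, which does not show its share to be equal in both regions. Among distal sections its share was 71.7% in section 4 (limits 61.4 to 80.6) and 54.7% in section 3 (limits 49.5 to 59.8), and the limits of these 2 do not overlap. In sections 1 and 2 it was 57.5% and 58.9%, close to section 3. The 2 genes were counted at 330 and 238 spots of the distal sections, and 8 spots held both. The central zone alone had 587716 spots. The number of shared spots under independent placement was not computed, so 8 is not read as little overlap. A spot held at most 4 MIDs of the 5A gene and 8 of the 5D gene. Whether reads of the 2 genes can be told apart was not tested.

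TraesCS1B03G0051800 had 41, 27, 153 and 90 MIDs in distal sections 1 to 4, or 21.4, 15.8, 68.6 and 63.3 CPM. Sections 3 and 4 lay well above sections 1 and 2, a different order of sections than in the 5D gene. Of its 311 distal MIDs 251 were central (log2 2.59, limits 2.40 to 2.77), as were 212 of 314 in the root cap region (log2 2.10, limits 1.90 to 2.29). It was the only member seen in all 10 root cap region sections, between 10.1 CPM in section 5 and 201 CPM in section 9.

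TraesCS1B03G0053600 had 12, 10, 75 and 14 MIDs in distal sections 1 to 4, so that 67.6% of its 111 MIDs came from section 3. Its central share was 62.2% in the distal sections (log2 2.22, limits 1.86 to 2.56) and 50.8% of 179 MIDs in the root cap region (log2 1.73, limits 1.41 to 2.02). The Bowman-Birk type gene TraesCS1B03G0050600 was almost unseen in the distal sections, with 1 MID each in sections 3 and 4. In the root cap region it had 19 MIDs, 4, 5, 5 and 5 in sections 2, 4, 7 and 9 and none elsewhere. Only 5 of those 19 were central (log2 0.72, limits -0.90 to 1.95), the weakest central pull among members with more than 1 MID there.

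TraesCS6A03G0661700LC had 27, 10, 17 and 41 MIDs in distal sections 1 to 4. Its highest level, 28.8 CPM, was in section 4, where the 5D gene was low, as it was in section 2. Its distal MIDs were 49.5% central, with 19 between radius 0.37 and 0.50 and 28 in the cortex zone (log2 1.90 for the central zone, limits 1.45 to 2.31). Section 4 also had the most MIDs of the xylem list, 120.9 CPM against 17.5 to 24.0 in the other 3. The part of section 4's position or tissue in these levels was not tested.

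The WAT1 orthologue TraesCS3D03G0013700 had few distal MIDs, spread between radius 0.1 and 0.6. It had 5, 0, 24 and 1 MIDs in distal sections 1 to 4, so section 3 gave 80.0% of the 30. Of these 11 were central (log2 1.46, limits 0.46 to 2.30), 16 lay between radius 0.37 and 0.50 and 3 in the cortex zone, and 14 of the 30 fell between radius 0.4 and 0.5. Its density was 0.0362 MIDs per 1000 spots there (limits 0.0198 to 0.0608) and 0.031 between radius 0.1 and 0.2 (limits 0.00846 to 0.0795), with limits that overlap. The median radius was 0.40, close to the 0.41 of the xylem list. On the root cap region chip 14 of its 30 MIDs were central and 4 lay between radius 0.37 and 0.50, with section 9 holding 12 of the 30.

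TraesCS2A03G0412800, of the copper protein group, had 11 distal MIDs (1, 4, 2 and 4), 6 of them central, and 13 in the root cap region, 8 of them central. TraesCS3B03G0036500 had 3 distal MIDs, all central and all in section 3, and 1 MID in the root cap region, in the cortex zone of section 4. At such counts the limits on a central enrichment span several log2 units.

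**Figure D2:**
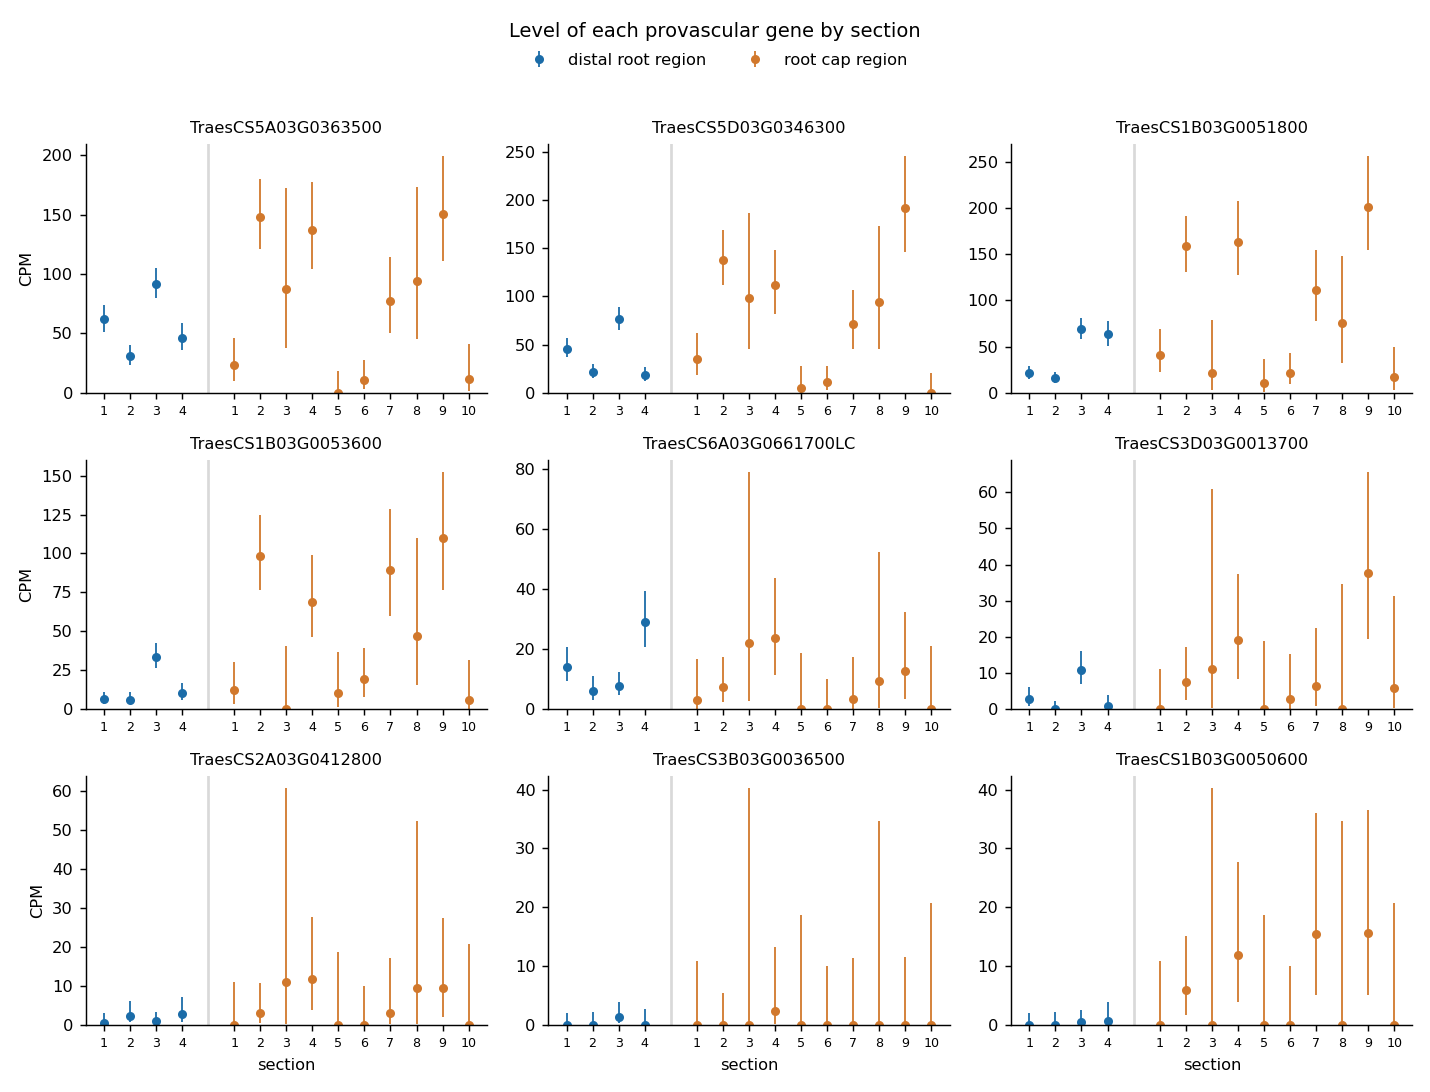
Level of each provascular gene in CPM (y axes differ) in the 4 distal root region sections (left of the grey line) and the 10 root cap region sections (right). Points are section values and bars exact 95% Poisson limits. TraesCS5A03G0363500 peaked at 91.9 in distal section 3 and at 151 in root cap region section 9, and TraesCS6A03G0661700LC was highest in distal section 4.

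Of the 9 genes, 6 had at least 20 MIDs in the distal sections, and all 6 were past log2 1 in the central zone, against 4.29% of the 31295 nuclear genes with that many MIDs. The median was 2.40 for the 6 and -0.06 for all. In the root cap region sections 6 members had at least 20 MIDs and all 6 were past log2 1, with 4.85% of 17956 genes past it and medians of 2.03 and -0.05. The same 6 genes passed the minimum in both regions. Because position chose the list, nothing is read from these counts. Without distal section 3, TraesCS3D03G0013700 fell under the minimum and the count was 5 of 5.

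**Figure D3:**
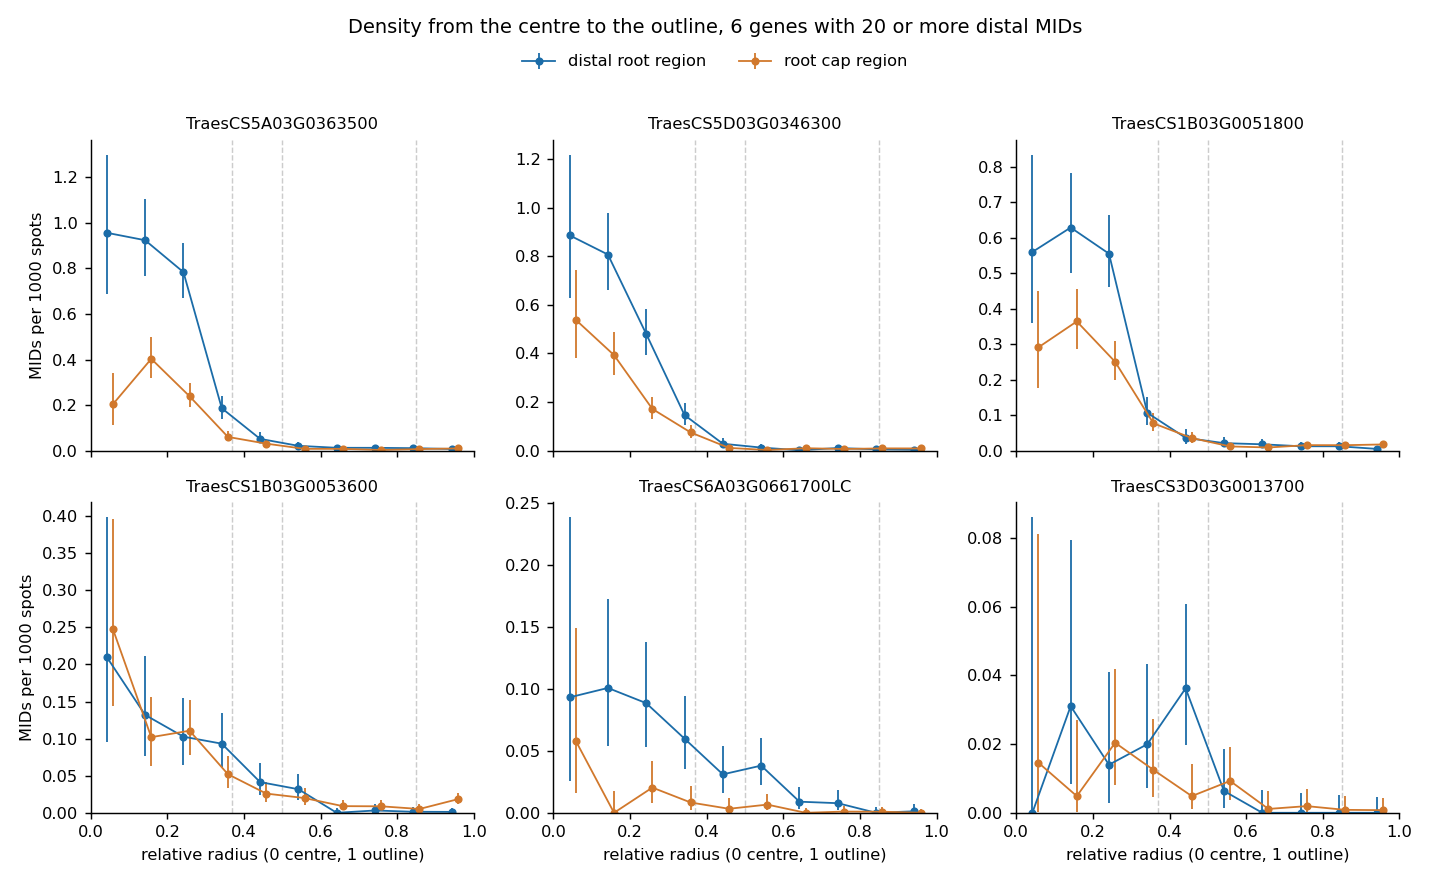
Density in MIDs per 1000 spots against relative radius, in steps of 0.1, for the 6 provascular genes with 20 or more distal MIDs, in the distal root region and the root cap region (y axes differ). Bars are exact 95% Poisson limits and dashed lines mark radii 0.37, 0.50 and 0.85. TraesCS5A03G0363500 stood at 0.956 in the innermost distal step and at 0.0517 between 0.4 and 0.5, while TraesCS3D03G0013700 had its highest distal value, 0.0362, between 0.4 and 0.5.

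The study matched 7 further genes of the same single-cell cluster to provascular cells of wheat nuclei or to early stele of maize, without listing them for the sections. They are what is left of the matched genes once those listed for the central pattern are taken out, so a lower central share is in part fixed by that split. Together they had 1631 distal MIDs, 390 of them central with 215 expected (log2 0.86, limits 0.71 to 1.0), and 1344 MIDs in the root cap region, 288 central with 203 expected (log2 0.50, limits 0.33 to 0.67). Of the 5 with at least 20 distal MIDs, 3 were past log2 1. TraesCS5A03G0580100 came closest to the listed genes, with 155 of 291 distal MIDs central (log2 2.01, limits 1.77 to 2.24). TraesCS3A03G0654600 and TraesCS7D03G1240300 were at 1.15 and 1.05, with lower limits of 0.57 and 0.21. TraesCS1D03G0042100, also a Bowman-Birk type inhibitor, gave 1134 of the 1631 MIDs and was hardly central (log2 0.28, limits 0.07 to 0.49). Its MIDs peaked around the stele, with 276 between radius 0.4 and 0.5 and 292 between 0.5 and 0.6. TraesCS2A03G0073200 was at -0.74 (limits -3.78 to 1.11), with 16 of 26 MIDs in the cortex zone. The remaining 2, TraesCS2B03G0107600 and TraesCS3A03G0016400, had 15 and 14 distal MIDs.

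**Figure D4:**
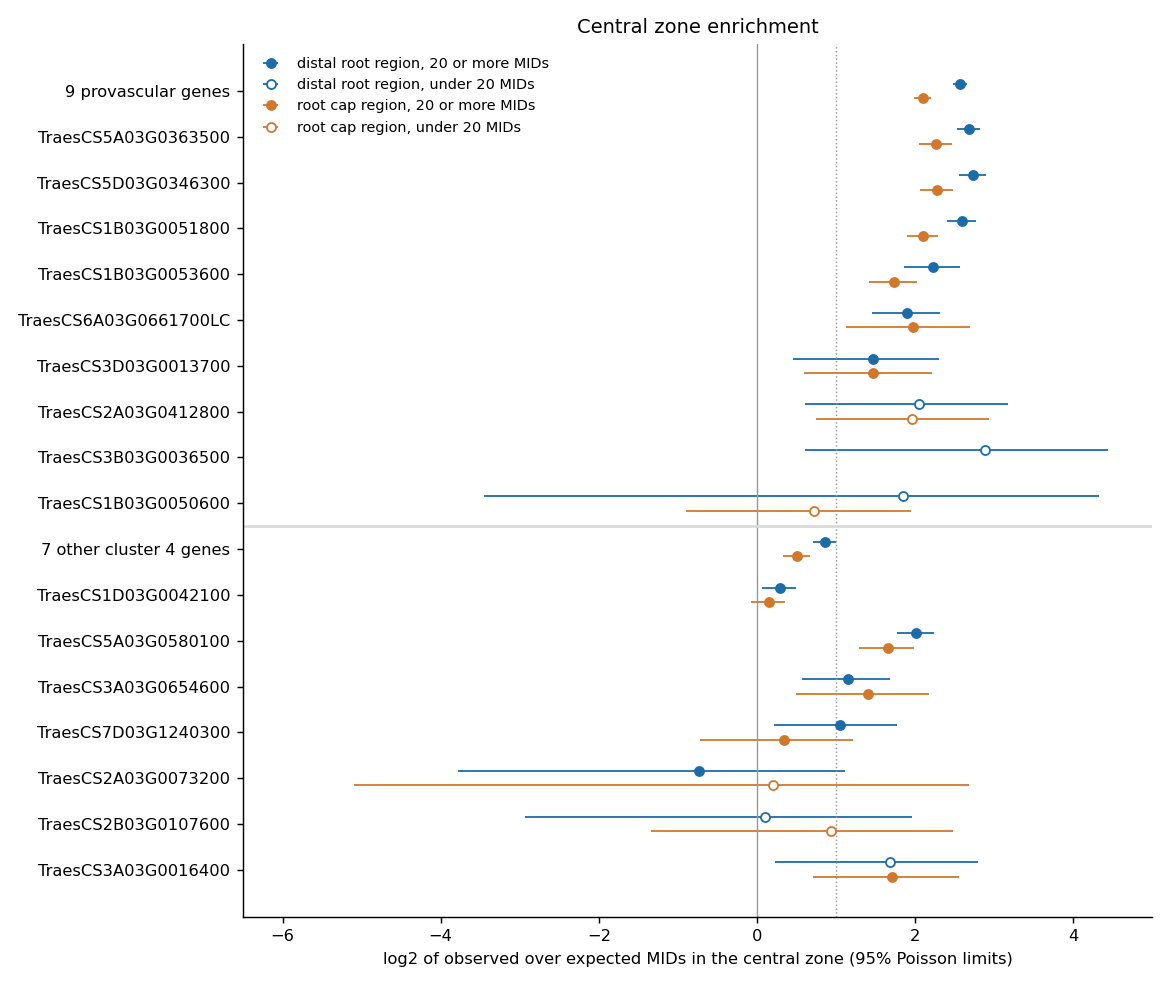
Log2 of observed over expected MIDs in the central zone for the 9 provascular genes (upper block) and the 7 other genes of the same single-cell cluster (lower block), in the distal root region (upper point of each pair) and the root cap region (lower point), with exact 95% Poisson limits. Open points rest on under 20 MIDs, the dotted line marks log2 1, and TraesCS3B03G0036500 has no root cap region point because its 1 MID there was not central. The sums stood at 2.56 and 2.09 for the provascular genes and at 0.86 and 0.50 for the other 7.

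All 9 genes were seen within the root cap region sections, 8 of them with at least 3 MIDs. Of the 69630 nuclear genes seen in the distal sections, 74.2% were seen there too. The level of the 9 genes was uneven from section to section. Sections 2, 4, 7 and 9 had 567, 550, 377 and 727 CPM of the list, and sections 1, 3, 6 and 8 had 115, 251, 65.3 and 329. The lowest were section 5 with 25.3 and section 10 with 39.4 CPM. Those 2 sections carried nearly all root cap marker MIDs of the chip, 1583 of 1709 for the 19 root cap genes of the study, at 3607 and 4908 CPM against 10.9 to 65.8 in the other 8. Sections 5 and 10 together had 12 MIDs of the provascular genes (32 CPM, limits 16.5 to 55.9), 1 of them central, and the other 8 had 1093 (412.5 CPM, limits 388 to 438). In the distal sections the root cap list had 0 MIDs, at a floor of 3 MIDs or 0.41 CPM. The root cap list was itself chosen on the study's sections, so its presence on this chip does not test the label. Its MIDs lay mainly in sections 5 and 10, and the provascular genes were seen mainly in the other sections of that chip.

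Within the torn sections 3, 6 and 8, 23 of 82 MIDs were in the central zone (log2 1.76, limits 1.11 to 2.35). In the other 7 sections 719 of 1023 were central (log2 2.11, limits 2.0 to 2.21), and the limits overlap.

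Over all outlined sections the 9 genes stood at 182 CPM in the distal root region and at 365 CPM in the root cap region. The log2 difference, distal over root cap region, was -1.0 (limits -1.12 to -0.89), that is, a level 2.0-fold higher per nuclear MID in the root cap region. Per area the order was reversed, with 0.309 MIDs per 1000 spots in the distal and 0.161 in the root cap region sections. All nuclear genes had 1694 and 440 MIDs per 1000 spots, so the direction rests on the division by nuclear MIDs. Over all 35622 nuclear genes with at least 20 MIDs in both regions together the median log2 difference was 0.20, and that of the 8 members with as many was -1.27. Of these 8, 5 were below log2 -1 and none was above log2 1, against 8.73% and 20.6% of all genes. The 5 were TraesCS1B03G0050600, TraesCS1B03G0053600, TraesCS2A03G0412800, TraesCS1B03G0051800 and TraesCS3D03G0013700. Limits reached above log2 -1 for TraesCS2A03G0412800 (log2 -1.51, limits -2.81 to -0.23) and TraesCS3D03G0013700 (log2 -1.27, limits -2.05 to -0.49).

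All 3 genes of chromosome 1B were among these 5. TraesCS1B03G0053600 had 15.3 CPM in the distal and 59.2 in the root cap region (log2 -1.96, limits -2.31 to -1.61), and TraesCS1B03G0051800 had 42.7 and 104 (log2 -1.28, limits -1.51 to -1.05). TraesCS1B03G0050600, with 2 and 19 MIDs, was at log2 -4.51 (limits -7.66 to -2.46). Together the 3 made up 32% of the list's MIDs in the distal root region (limits 29.4 to 34.5) and 46.3% in the root cap region (limits 43.4 to 49.3). The 5A and 5D pair made up 57.6% in the distal root region and 47.5% in the root cap region. TraesCS5A03G0363500 differed less between the regions, with 60.9 CPM in the distal and 87.3 in the root cap region (log2 -0.52, limits -0.74 to -0.29), than TraesCS5D03G0346300, with 44.1 and 86.3 (log2 -0.97, limits -1.21 to -0.73). TraesCS6A03G0661700LC alone among members with 20 or more MIDs was higher in the distal root region, at 13.1 against 7.94 CPM (log2 0.72, limits 0.06 to 1.43).

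With the central zones alone set side by side, the difference was smaller. Of the nuclear MIDs in that zone the 9 genes had 1097 CPM in the distal root region and 1724 in the root cap region (log2 -0.65, limits -0.79 to -0.51). TraesCS5A03G0363500 was then at log2 -0.23 with limits that include 0 (-0.48 to 0.02), and TraesCS1B03G0053600 was at -1.53 (limits -2.01 to -1.07), against -1.96 over whole sections.

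The section total rested on few sections in each region. Distal section 3 alone gave 650 of the 1327 distal MIDs (49%), with 30.6% of the nuclear MIDs, and the 4 sections stood at 153, 82.6, 292 and 171 CPM, a 3.53-fold range (limits 2.94 to 4.27). Without section 3 the log2 difference between regions was -1.45 for the list, -3.06 for TraesCS3D03G0013700, -3.05 for TraesCS1B03G0053600 and -1.53 for TraesCS5D03G0346300, which then also lay below log2 -1. For the list it was -0.75 without root cap region section 2 and -1.18 without sections 5 and 10. With the density just outside the outlines subtracted it was -0.41.

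**Figure D5:**
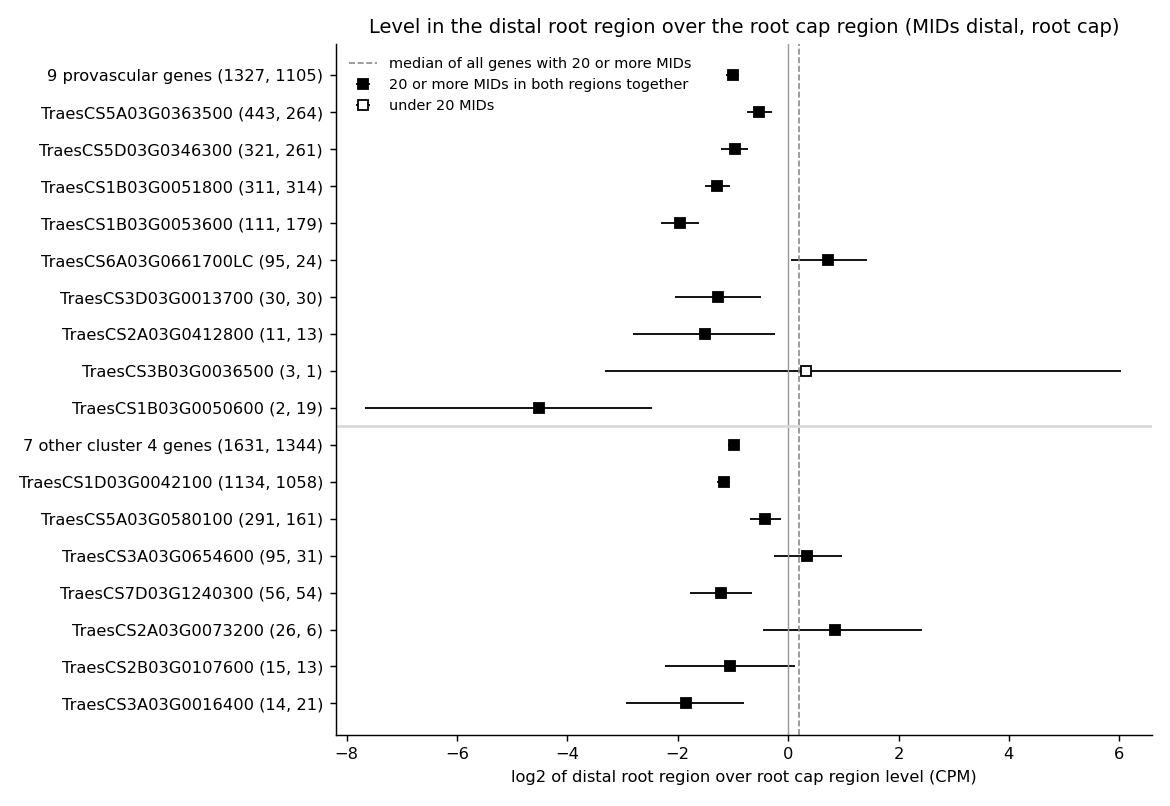
Log2 of the level in the distal root region over that in the root cap region (CPM within the outlines) for the 9 provascular genes and the 7 other genes of the same cluster, with limits from the exact binomial share. MIDs in the distal and root cap regions follow each name, the open square rests on under 20 MIDs, and the dashed line is the median of all genes, 0.20. The provascular sum stood at -1.0, and TraesCS6A03G0661700LC was at 0.72.

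The study's lists for the other inner tissues did not share one difference between the regions. The 4 xylem genes were also lower in the distal root region, with 40.8 CPM against 65.5 (log2 -0.68, limits -0.95 to -0.42). The 6 phloem genes were higher there, with 122 MIDs in the distal and 4 in the root cap region (log2 3.66, limits 2.27 to 5.56), and the 5 pericycle genes had 42 and 4 MIDs (log2 2.13, limits 0.66 to 4.07). The endodermis list was at 46.9 and 47 CPM. The 7 other cluster genes were at log2 -0.99 (limits -1.09 to -0.88), of which TraesCS1D03G0042100 gave most MIDs in each region.

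Most MIDs of the 9 genes lay outside the outlines. On the distal root region chip 22.4% of their 5928 MIDs were inside, against 9.39% for all nuclear genes, and on the root cap region chip 19.1% of 5791, against 10.7%. In a ring 50 to 300 spots outside the outlines the 9 genes had 0.0556 MIDs per 1000 spots on the distal root region chip, 18% of their mean density within the outlines. All nuclear genes kept 70.7% of theirs in that ring. Their central density, 1.76 per 1000 spots, was 31.7 times the ring density. Their cortex zone, at 0.0656, was close to it and their outermost zone, at 0.0209, lay below it. On the root cap region chip the ring had 0.0694 per 1000 spots, 43.1% of the mean within the outlines, the central zone 0.789, the cortex zone 0.0456 and the outermost zone 0.0502. Beside the root cap region tissue these genes were thus denser than in its cortex and outermost zones, and beside the distal tissue denser than in the outermost zone only.

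Position was not judged on the exonic part of the counts, but the study drew its lists from top genes of single-cell clusters. Whether that choice favoured genes with a high exonic share was not tested. Of the members' MIDs 1325 of 1327 were exonic in the distal and 1104 of 1105 in the root cap region sections, together 99.9% (limits 99.6 to 100.0). All nuclear genes were exonic for 86.2% of their MIDs in the distal and 76.8% in the root cap region sections. The members did not stand apart in this from the study's other lists, of which the epidermis list was lowest, at 96.0% in the distal and 95.4% in the root cap region sections, and the others with any MID were at 99.1% or more.

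By pattern over the 4 distal sections and 10 radius bins (40 points), the genes most like the summed members, among 10354 candidates with at least 100 MIDs outside the study's marker lists and the 7 genes above, were TraesCS5B03G0361600 (Pearson r = 0.90), TraesCS3B03G0529400 (0.89), TraesCS7B03G0171900 (0.87), TraesCS4A03G0576000 (0.86) and TraesCS7A03G0375000 (0.86). The points share sections and total density, so r is a description. Their central shares were lower than that of the members. They ran between 25.7% of 451 distal MIDs for TraesCS5B03G0361600 (log2 0.98) and 52.8% of 345 for TraesCS4A03G0576000 (log2 2.04). TraesCS5B03G0361600 was not central in the root cap region, with 43 of 251 MIDs (log2 0.21), while the other 4 were at log2 1.23 to 1.77 there. Among the members themselves r with their own sum was 0.95 for TraesCS5D03G0346300, 0.92 for TraesCS5A03G0363500, 0.84 for TraesCS1B03G0051800 and 0.82 for TraesCS1B03G0053600, which each contribute to that sum. It was 0.41 for both TraesCS6A03G0661700LC and TraesCS3D03G0013700. These had 95 and 30 distal MIDs, under the minimum of 100 set for candidates. How far sparse counts lowered their r was not tested.

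Within 20 ID steps of a member on its chromosome lay 43 other gene IDs with at least 20 distal MIDs, members left out, and 4 of them (9.3%) were past log2 1 in the central zone, against 4.29% of all genes. TraesCS5A03G0363400, the ID next to TraesCS5A03G0363500, had 60 of 116 MIDs central (log2 1.98), and TraesCS5A03G0364500 had 26 of 87 (log2 1.14). TraesCS3D03G0015600, near the WAT1 orthologue, had 10 of 29 (log2 1.36) and TraesCS6A03G0660200 had 17 of 64 (log2 1.01). Near the 3 genes of chromosome 1B only 4 other IDs had that many MIDs, and none of the 4 was past it. TraesCS1B03G0051800 itself lies within 20 steps of both other members of that chromosome. Neither strand nor overlap of neighbouring genes is stated in those sources, so MIDs of such neighbours may not be told apart.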

How the data were processed

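The authors used the STOmics Analysis Workflow and deposited raw counts of MIDs, and of exonic MIDs, for each gene and spot of the entire chip, on and off tissue. The genome build was not given in the sources used here. Chloroplast and mitochondrial rows were left out. No gene ID matched the reference table of names, so annotations come from the study's tables, and no sequence was at hand to print.

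Section outlines were drawn by hand on density maps before any gene was mapped, and numbered by place. They could not be matched to the study's section numbers. Relative radius is the distance from the section centroid over that to the outline. Expected MIDs in a zone are a gene's MIDs per section times the zone's share of that section's nuclear MIDs. A count of 0 had a floor of 3 MIDs. Limits are exact (95%), except those for values with the density outside subtracted. The steps were tested on simulated counts (Python 3.11.15, numpy 2.4.6, pandas 2.3.3, scipy 1.17.1).

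Named genes were the 9 members, 7 other genes of the cluster, the 5 most alike and ID neighbours past log2 1. Members and lists were chosen with earlier results of these data known. Alternatives changed the zone boundary, radius, reference, exonic restriction, minimum and sections, subtracted the density outside, or left out the largest member.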

Additional observations from a re-analysis of the deposited data

How the results depend on the processing

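Of 65 recomputed values, 42 stayed within the limits of the reported value (for counts, within 1.5 times), 23 moved beyond them and none changed direction. The difference between regions per spot, which has the opposite direction, was not among the 65. For the distal central enrichment, keeping the 8 genes with the expected pattern and leaving out the largest member are the same computation (2.51). It is counted under both. The distal central enrichment (log2 2.56) was 2.78 with the zone boundary 10% closer, 2.37 with it 10% farther, 2.30 by distance to the nearest outline point and 2.80 with the density outside the outlines subtracted from the members alone, and 2.54 to 2.61 without a section. The alternatives for the root cap region enrichment (2.09) were chosen after seeing the data, and gave 2.23, 1.98, 1.82 and 2.77 in the same order. The count of 6 of 6 genes past log2 1 was 5 of 5 at a minimum of 50 MIDs and 9 of 9 with none. Without a section it was 5 of 5 or 6 of 6. The share of all genes past log2 1 was not computed for these settings, so nothing is read from them. With no minimum, TraesCS1B03G0050600 passed on 1 central MID of 2 (limits -3.45 to 4.33). The log2 difference between regions (-1.0) was -1.42 over the whole chip, -1.17 for exonic MIDs, -1.19 without the 100 most counted genes in the reference, -0.41 with the density outside subtracted, -1.19 without TraesCS5A03G0363500 and -1.45 to -0.75 without a section. Chosen after seeing the data, leaving out torn sections 3, 6 and 8 gave -1.19, and leaving out small sections 5 and 10 gave -1.18. The range over distal sections (3.53-fold) was 4.65-fold per spot. The share of TraesCS5A03G0363500 in its pair (58%) was 56.1% to 61.2% without a section. Causes were not tested. No paired analysis was possible because each region has 1 library. Depth limits TraesCS1B03G0050600, TraesCS2A03G0412800 and TraesCS3B03G0036500, which had 2 to 11 distal MIDs.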
